A study of Sus scrofa with 12 samples.

Results

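The genes described here are those of the swine major histocompatibility complex, called SLA in pigs, and of the machinery that cuts and loads the peptides it presents. They were chosen by 36 gene names, of which 22 stood as names in the authors' deposited comparison table of 21223 genes and 14 were dropped. Their counts were taken from the separate count table of 25880 genes. Class I molecules are a heavy chain paired with the light chain B2M. They carry peptides that the proteasome makes in the cytosol and that the TAP transporter brings into the endoplasmic reticulum. Class II molecules take peptides cut by endosomal enzymes and are guarded until then by the invariant chain CD74. In the brain, class I levels are low in neurons at rest, class II is mostly made by microglia and other myeloid cells, and both sets are induced by interferon gamma.

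RNA labelled as striatum came from 12 newborn piglets, with no age in days in the labels. Piglets of the DHCA group (deep hypothermic circulatory arrest, cardiac arrest in the series' title, n = 6) were anaesthetised with 4% isoflurane and cannulated for bypass through the sternum. They were cooled to 18 °C, kept in arrest for 30 min, rewarmed to 37 °C and left to recover for 6 h. Sham piglets (n = 6) were under 4% isoflurane, and their labels name no bypass, cooling or recovery time, so surgery, bypass, cooling, arrest and time cannot be told apart. Levels are given as CPM, counts scaled to library size with TMM factors, and as TPM, which also divides by gene length, where genes are compared with each other.

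Counts per library ranged from 5434652 to 9997400 in DHCA and from 1377809 to 12933536 in Sham. Sham 5 and Sham 1 were the shallowest, with 1377809 and 2515816 counts. Mitochondrial messages made up 7.30% of counts in Sham 5 and 4.01% in Sham 1, against 10.6 to 26.3% in the others. Sham 4 went against its tissue label. The summed level of 9 spiny neuron markers was 115 CPM there, against 2246 CPM or more in each of the other libraries, and the cortical gene NEUROD6 stood at 122 CPM. Estimates were also made without Sham 1 and Sham 5 and without all 3 of these libraries. In bulk tissue, fewer cells of a type and less RNA per cell cannot be told apart.

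No member passed the test between groups. The edgeR quasi-likelihood test with Benjamini-Hochberg adjustment over all genes called 26 of 14004 genes (0.186%) at an adjusted p under 0.05, and 0 of the 21 members tested. PSME1, with 65 counts in all libraries together, was left out by the filter on low counts. At an unadjusted p under 0.05 there was 1 member, CIITA, on the higher side, beside 7.9% of all genes tested, or 3.43% on the higher side. With DESeq2 179 genes (1.1%) were called and with voom on quality-weighted samples 207 (1.48%), again with 0 members. The authors' deposited table puts 220 genes (1.29%) past the same threshold, none of them a member, and its lowest adjusted p of a member was 0.398, for RFXANK. For 0 members were the DHCA and Sham libraries fully separated, against 0.993% of all genes. Of the 21 log2 fold changes 15 were above 0, with a median of 0.12, beside 49.5% above 0 and a median of -0.0030 over all genes tested. With the 4 tested rows that the naming rule did not take, it was 16 of 25, with a median of 0.043. TAPBP, TAPBPL, CD74, NLRC5 and PSMB8, above 0 by 0.12 or less, each changed sign under 4 or more of the alternatives. The members share their libraries, so these signs are not independent.

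**Figure D1:**
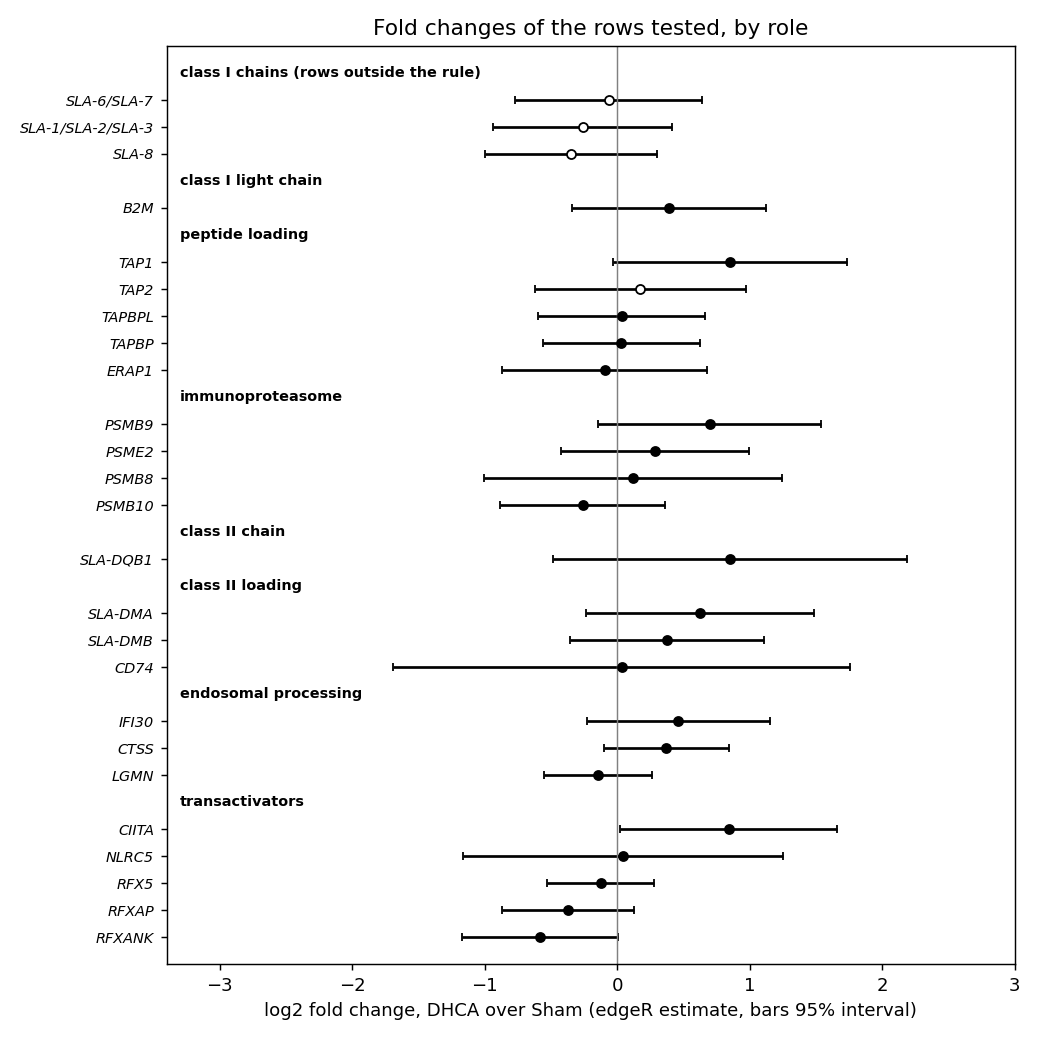
Log2 fold change of DHCA over Sham for each row tested, grouped by role, with the edgeR estimate as a point and its 95% interval as a bar. Filled points are the 21 members and open points are rows that the naming rule did not take. Every bar but that of CIITA spans 0, and the bar of CD74 runs from -1.69 to 1.76.

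Of the class I chains, the light chain B2M (chromosome 1, 126834580 to 126872431, build Sscrofa11.1) was the member found by name. B2M had 12.3 to 27.7 CPM in DHCA libraries (median 18.5) and 7.37 to 33.1 CPM in Sham libraries (median 10.4). Sham 2 was the highest of all 12 and every DHCA library lay above the Sham median of 10.4 CPM. The log2 fold change was 0.39 (SE 0.34, edgeR adjusted p = 0.812), with a 95% interval of -0.34 to 1.12. Leaving out Sham 2 gave 0.87 (edgeR adjusted p = 0.194), the lowest adjusted p of any member under any alternative tried. Leaving out other libraries gave 0.23 without DHCA 3, 0.25 without Sham 1, 0.14 without Sham 1 and Sham 5 and -0.033 without Sham 1, Sham 4 and Sham 5, so the direction rests on those 3 libraries.

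The 7 heavy chain names were not in the authors' naming, and their reads were found through the exon positions of a RefSeq gene table of the same build. One row of the count table, on chromosome 7 from 22823841 to 22962547, covers SLA-1, SLA-2 and SLA-3 together, the classical class I chains of pigs. It held 20338 counts, more than any member. This row had 123 to 305 CPM in DHCA libraries (median 225) and 122 to 453 CPM in Sham libraries (median 251). The highest library was Sham 5, one of the shallow ones, and the groups overlapped throughout. Its log2 fold change was -0.26 (SE 0.32, edgeR adjusted p = 0.842). Without Sham 1 and Sham 5 the estimate was 0.14, so its sign rests on those libraries. The row for SLA-6 and SLA-7 averaged 6.33 ± 2.76 CPM in DHCA and 6.89 ± 2.59 CPM in Sham (SD, n = 6 each), and the row for SLA-8 averaged 6.09 ± 2.15 CPM in DHCA and 8.14 ± 3.21 CPM in Sham. SLA-5 had 44 counts in all and was not tested. Summed to 1 row, the class I rows averaged 236 ± 80.4 CPM in DHCA and 284 ± 127 CPM in Sham, with 94.4% of their counts in the SLA-1, SLA-2 and SLA-3 row and an edgeR adjusted p of 0.84. These genes are near copies of each other, and how the authors' counting split reads between the rows is uncertain.

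The peptide loading genes hold the highest level per length of all members and the largest estimate of the class I branch. TAPBP, tapasin, which holds empty class I molecules next to the transporter, was the most abundant member per length at 40.2 ± 15.7 TPM over the 12 libraries (SD). It had 29.5 to 69.1 CPM in DHCA libraries (median 52) and 31.6 to 81.4 CPM in Sham libraries (median 51.2), a log2 fold change of 0.031 with a 95% interval of -0.56 to 0.62. A change of 2-fold in either direction lies outside that interval. TAP1, the chain of the peptide pump that the rule found, followed at 32.2 ± 22.1 TPM. TAP1 (chromosome 7, 25062771 to 25072038) had 50.4, 95, 33.6, 77, 29.2 and 18.3 CPM in DHCA 1 to 6, and 31.4, 16.7, 21.7, 14.1, 54.6 and 34.1 CPM in Sham 1 to 6. DHCA 2 and DHCA 4 stood highest, 5 of 6 DHCA libraries lay above the Sham median, and DHCA 6 lay among the low Sham libraries. TAP1's log2 fold change was 0.85 (SE 0.41, edgeR adjusted p = 0.659). It ranged from 0.58 without DHCA 2 to 1.22 without Sham 1 and Sham 5 and was called under no alternative.

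TAP2, the partner of TAP1 in the pump, lacked a name in the authors' table and was found through the reference names. It averaged 25.6 ± 14.4 CPM in DHCA and 23.2 ± 9.65 CPM in Sham, a log2 fold change of 0.18 (SE 0.37). The 2 chains of the transporter thus had estimates of 0.85 and 0.18, and their difference was not tested. TAPBPL, a tapasin relative that edits the peptides on class I, averaged 20 ± 6.17 CPM in DHCA and 20.1 ± 9.39 CPM in Sham. ERAP1, which trims peptides in the endoplasmic reticulum, averaged 11.8 ± 5.23 CPM in DHCA and 12.7 ± 5.89 CPM in Sham. Both estimates lay within 0.1 of 0 on the log2 scale.

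The immunoproteasome replaces the 3 catalytic subunits of the standard proteasome with PSMB8, PSMB9 and PSMB10 and is capped by the PSME1 and PSME2 activator. PSMB9 (chromosome 7, 25071712 to 25077233) had 2.47 to 7.66 CPM in DHCA libraries (median 4.44) and 1.55 to 7.99 CPM in Sham libraries (median 2.36). All 6 DHCA libraries lay above the Sham median, and Sham 5 was the highest of the 12. PSMB9 had a log2 fold change of 0.70 (SE 0.39, edgeR adjusted p = 0.744). PSMB8 averaged 6.82 ± 4.5 CPM in DHCA and 6.91 ± 4.75 CPM in Sham, with an 8.05-fold span between its lowest and highest library. PSMB10 averaged 14.9 ± 4.66 CPM in DHCA and 18.4 ± 7.87 CPM in Sham, a log2 fold change of -0.26 that turned to 0.11 without Sham 1 and Sham 5. PSME2 averaged 3.19 ± 0.78 CPM in DHCA and 2.54 ± 1.17 CPM in Sham. PSME1 stayed at or below 1.23 CPM in every library.

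The standard subunits gave a scale for these levels. PSMB6, which PSMB9 replaces, held nearly level at 46.7 to 53.6 CPM in DHCA and 44.6 to 53.9 CPM in Sham (log2 fold change -0.037). Per length, PSMB9 reached 11.3 to 33.3% of PSMB6 in DHCA libraries (median 18.9%) and 7.63 to 32.5% in Sham libraries (median 9.81%). PSMB10 reached 4.36 to 7.03% of PSMB7, its standard counterpart, in DHCA and 2.94 to 9.27% in Sham. That percent depends on the length of the PSMB10 row, 5501 exon bases, of which 49.1% are shared with PSKH1. Without division by length, PSMB10 averaged 14.9 CPM in DHCA and 18.4 CPM in Sham, beside 52.4 and 60.9 CPM for PSMB7. The standard subunits were the larger message in every library, and both ratios overlapped between groups.

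Overlapping exons bear on these levels. The deposited counting command sets no option for reads that overlap more than 1 gene, and exons of 10 of the 22 members overlap those of other rows. PSME2 shares 57.2% of its exon bases with RNF31 and PSMB10 shares 49.1% with PSKH1, PSME1 shares 40.8% with FITM1, and CD74 shares 37.3% with TCOF1. RFXANK shares 27.5% with NR2C2AP and CTSS shares 26.3% with ARNT. How many reads this took from each gene was not tested.

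Of the class II chains, SLA-DQB1 was the member found. SLA-DQB1 (chromosome 7, 24939676 to 24977270) had 1.76, 7.07, 2.92, 2.42, 1.23 and 1.03 CPM in DHCA 1 to 6, and 2.33, 0.666, 1.35, 0.569, 6.66 and 1.02 CPM in Sham 1 to 6. DHCA 2 and Sham 5 stood apart at the top of their groups, and the other libraries overlapped between 0.569 and 2.92 CPM. Its log2 fold change was 0.85 with an SE of 0.62 (edgeR adjusted p = 0.795). The estimate was 0.29 without DHCA 2, 1.36 without Sham 5 and 1.60 without Sham 1 and Sham 5. Rows outside the naming rule held the other chains at low counts and were not tested. SLA-DRA had 110 counts in all libraries together, SLA-DQA1 had 144 and SLA-DRB1 had 43. SLA-DRA was at 0.196 to 4.48 CPM in DHCA and 0.25 to 11.3 CPM in Sham, with its highest values in DHCA 2 and Sham 5. SLA-DQA1 was at 0.824 to 5.16 CPM in DHCA and 0.27 to 2.66 CPM in Sham.

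CD74, the invariant chain, varied more between piglets than any other member. CD74 (chromosome 2, 151399969 to 151433844) had 14.8, 44.3, 16.6, 28.1, 6.04 and 3.3 CPM in DHCA 1 to 6, and 19.8, 3, 7.69, 4.12, 83.9 and 6.37 CPM in Sham 1 to 6. The span from lowest to highest was 28-fold, with Sham 5 at the top and Sham 2 at the bottom, so the whole range lay within the Sham group. Its biological coefficient of variation, the spread between animals that edgeR estimates beyond counting error, was 89.8%, at the 99.7th percentile of all genes tested. Between groups the log2 fold change was 0.032 (SE 0.80, edgeR adjusted p = 0.996). That estimate rests on Sham 5: it was 1.31 without that library and 1.84 without Sham 1 and Sham 5 together (edgeR adjusted p = 0.384), and -0.43 without DHCA 2. The authors' own log2 fold change for CD74 was 0.83 (SE 0.81), but other counts entered their table. DESeq2 on the 12 libraries used here gave -0.13. A difference between groups in CD74 was thus not detectable with these animals.

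SLA-DMA and SLA-DMB encode the 2 chains of the DM molecule, which exchanges the invariant chain remnant for peptide. SLA-DMA averaged 1.76 ± 1.06 CPM in DHCA and 1.17 ± 0.336 CPM in Sham, with its highest value of 3.67 CPM in DHCA 2 (log2 fold change 0.63, SE 0.40). SLA-DMB averaged 5.33 ± 1.05 CPM in DHCA and 4.06 ± 1.93 CPM in Sham (log2 fold change 0.38, SE 0.34). Without Sham 1, where its level was 0.388 CPM, the SLA-DMB estimate was 0.18. That of SLA-DMA was 0.21 with voom and quality weights. The DO molecule, which restrains DM, was barely covered: its SLA-DOA row had 7 counts in all and its SLA-DOB row had 88.

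Of the endosomal enzymes, LGMN, an asparagine endopeptidase, was the most abundant member per length after TAPBP and TAP1, at 16.1 ± 4.55 TPM. It had 20.7 to 36.4 CPM in DHCA libraries (median 29.3) and 25.8 to 44.6 CPM in Sham libraries (median 31.6). Its log2 fold change was -0.15 with a 95% interval of -0.56 to 0.26. CTSS, the cathepsin that cuts the invariant chain, had 8.63 to 16.6 CPM in DHCA libraries (median 12.8) and 6.59 to 13.7 CPM in Sham libraries (median 8.98). For CTSS 5 of 6 DHCA libraries lay above the Sham median, and the log2 fold change was 0.37 (SE 0.22, edgeR adjusted p = 0.761). It was 0.014 with voom and quality weights and 0.13 without Sham 1, Sham 4 and Sham 5. IFI30, a thiol reductase that unfolds antigens, averaged 2.79 ± 1.24 CPM in DHCA and 2.12 ± 0.504 CPM in Sham, with a log2 fold change of 0.46 that was 0.23 without DHCA 2. CTSL, found through the reference names, had 112 counts in all and was not tested.

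The transactivators hold the smallest p-values of the set, and they point both ways. CIITA, the master switch of class II genes, had 26.3, 48.4, 20.7, 38.2, 13 and 8.04 CPM in DHCA 1 to 6, and 19, 8.82, 12.3, 12.1, 22.6 and 14.3 CPM in Sham 1 to 6. DHCA 1, DHCA 2 and DHCA 4 stood above every Sham library and DHCA 6 below every one, with 4 of 6 DHCA libraries over the Sham median. CIITA's log2 fold change was 0.84 (SE 0.38, edgeR adjusted p = 0.618), and the estimate stayed between 0.56 and 1.13 under the alternatives tried. NLRC5, the class I counterpart of CIITA, averaged 24.3 ± 17.2 CPM in DHCA and 24.4 ± 15.8 CPM in Sham, with a 10.7-fold span between libraries. Its log2 fold change was 0.043 with a 95% interval of -1.16 to 1.25.

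RFX5, RFXAP and RFXANK form the complex that binds class I and class II promoters and recruits both transactivators. RFXANK had 5.36 to 11.4 CPM in DHCA libraries (median 11) and 9.15 to 24.8 CPM in Sham libraries (median 11.9). All 6 DHCA libraries lay below the Sham median, where 4 of them sat at 10.9 to 11.4 CPM, inside the Sham range, and DHCA 5 and DHCA 6 were below it. RFXANK had a log2 fold change of -0.58 (SE 0.27, edgeR adjusted p = 0.64). RFXAP, next in level per length after LGMN, had 7.63 to 11.2 CPM in DHCA libraries (median 8.92) and 7.99 to 22.1 CPM in Sham libraries (median 10.4), a log2 fold change of -0.37 (SE 0.23, edgeR adjusted p = 0.765). In both genes the highest library was Sham 1, which also gave RFX5 its highest value of 46.5 CPM. Without Sham 1, Sham 4 and Sham 5 the largest of these estimates, that of RFXANK, was -0.21. RFX5 averaged 26.9 ± 4.16 CPM in DHCA and 29.6 ± 8.48 CPM in Sham.

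**Figure D2:**
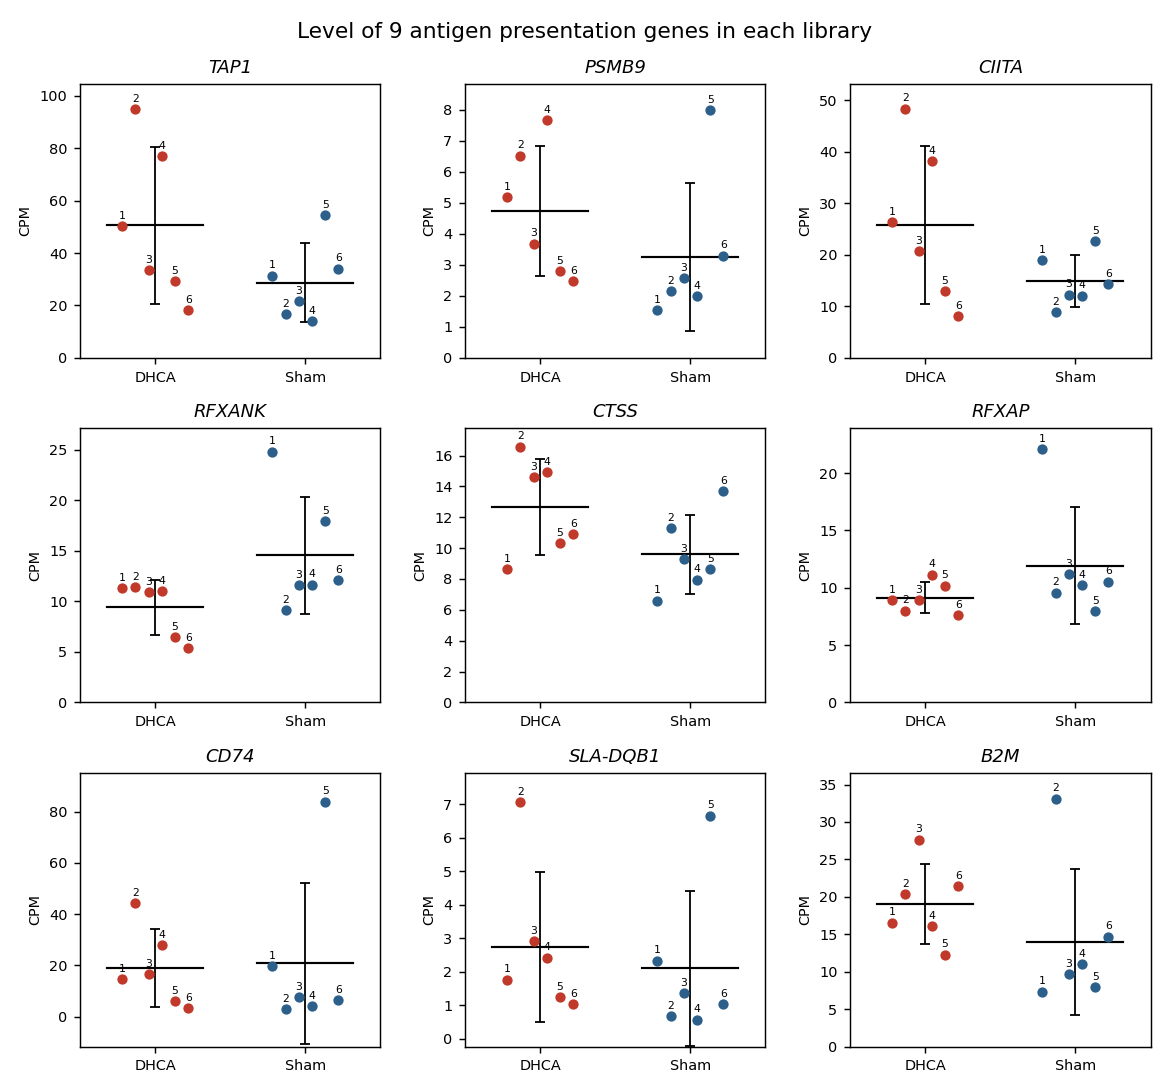
Level in CPM of 9 genes in each library, DHCA left of Sham, with the replicate number beside each point, the group mean as a line and the SD as a bar (n = 6 each). Groups overlap in every panel, DHCA 2 and DHCA 4 lead TAP1 and CIITA, and Sham 5 at 83.9 CPM sets the Sham mean of CD74.

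The interval of the fold change shows what these animals could resolve. For 9 of the 21 members tested, the 95% interval lay between -1 and 1 on the log2 scale, which leaves out a 2-fold change. For the other 12 it reached past that size. The spread between animals was above the median of all tested genes for 15 of 21 members, with a median coefficient of 35.4% beside 29.8% for all. CD74, NLRC5 (65.4%), SLA-DQB1 (64.7%), PSMB8 (60.1%) and TAP1 (48.5%) lay above the 90th percentile.

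Leaving out the shallow Sham 1 and Sham 5 together moved many estimates by over 1.5 times, with 0 members called. On the log2 scale it gave 0.74 for PSMB8, 0.51 for NLRC5, 0.44 for TAPBPL, 0.30 for TAPBP, 0.54 for TAP2, 0.24 for SLA-DMB and 0.14 for PSME2. On the lower side it gave -0.23 for RFXANK, -0.18 for RFXAP, -0.053 for ERAP1, -0.039 for the SLA-8 row and -0.0083 for LGMN. PSME2 was at 0.11 without Sham 1 alone, and RFXANK and RFXAP at -0.36 and -0.13.

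Much of that spread followed a few piglets. DHCA 2 held the highest value for 9 of 21 members, beside 4.25% of all tested genes, and was among the 3 highest libraries for 14, beside 21.6% of all genes. DHCA 4 was among the 3 highest for 12 members, beside 22.8% of all genes, and so was Sham 5, beside 29.7%. Sham 4 was among the 3 highest for 0 members, beside 26.1% of all genes, and lowest for 6, beside 9.4%. The shallow Sham 1 was highest for 6 members and lowest for 5, beside 27.2% and 31.4% of all genes. Within DHCA, piglets 5 and 6 were the lowest pair for 11 of 21 members, beside 11.8% of all genes. These 11 were TAP1, PSMB8, PSMB9, PSMB10, PSME2, SLA-DQB1, CD74, LGMN, CIITA, NLRC5 and RFXANK. Mitochondrial messages were 18.4% and 26.3% of counts in DHCA 5 and DHCA 6, 10.6% and 10.7% in DHCA 2 and DHCA 4, and 17.8% and 12.3% in DHCA 3 and DHCA 1. The part of RNA quality or dissection in this order was not tested, and these counts were made after the values were seen.

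**Figure D3:**
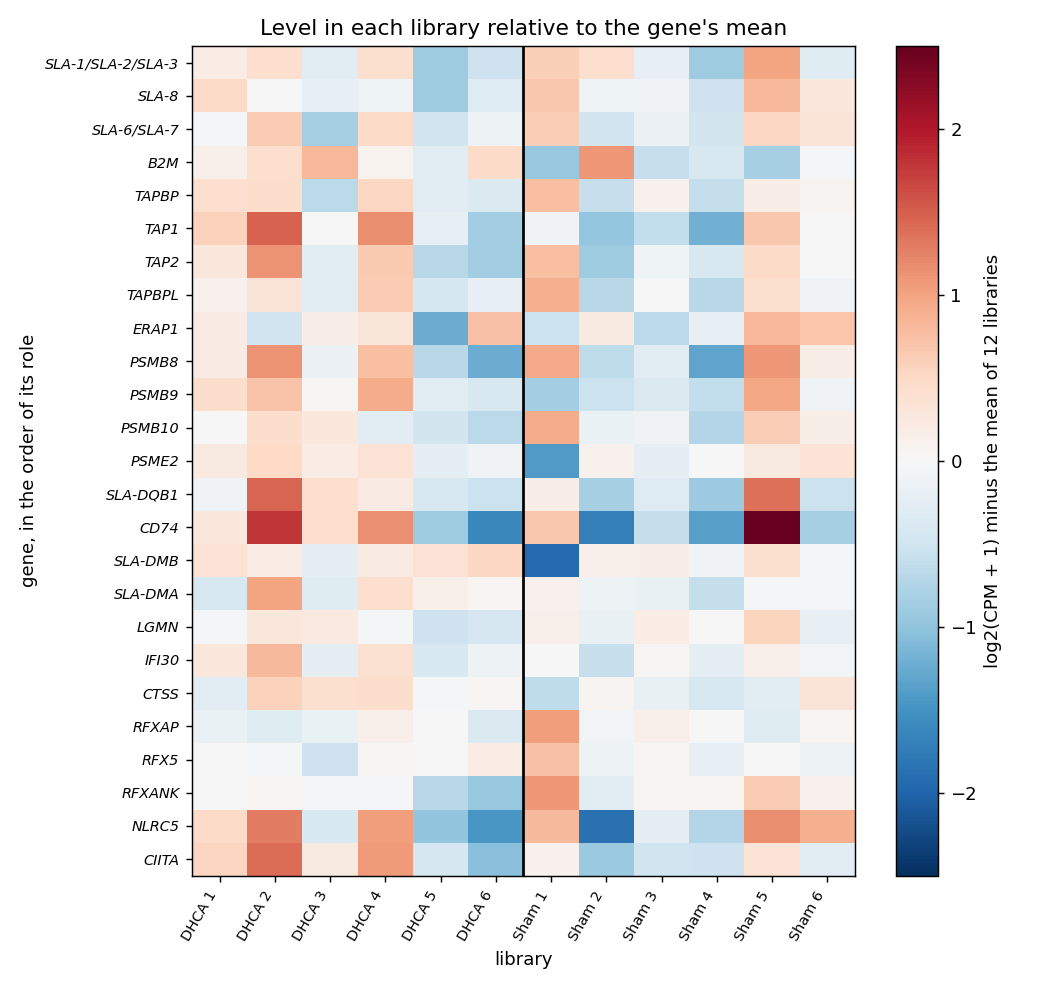
Heat map of 25 tested rows in 12 libraries, DHCA left of the line and Sham right of it, coloured by log2(CPM + 1) minus the mean of the gene over the libraries. DHCA 2, DHCA 4 and Sham 5 run red through TAP1, PSMB8, CD74, CIITA and NLRC5, while DHCA 6, Sham 2 and Sham 4 run blue.

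Whether genes of a shared step varied together was asked over 8 pairs, on log2 CPM over 12 libraries, with permutation p-values adjusted over the 8. CD74 and CIITA varied together, with a Pearson r of 0.85 (adjusted permutation p = 0.00176) and a Spearman rho of 0.89 (adjusted permutation p = 0.0024). Without DHCA 2 and Sham 5, the libraries farthest from the CD74 median, r was 0.94, and with each group centred on its mean it was 0.87. CD74 and the SLA-DRA row gave r = 0.84 and rho = 0.73 (adjusted permutation p = 0.0028 and 0.0173). Without DHCA 2 and Sham 5 that pair gave r = 0.60 and did not pass the test (adjusted permutation p = 0.15). Without Sham 1, Sham 4 and Sham 5 it gave r = 0.78 and rho = 0.68 (adjusted permutation p = 0.028 and 0.0805). TAP1 and PSMB9, which lie head to head on opposite strands and share 327 exon bases, gave r = 0.86 and rho = 0.86 (adjusted permutation p = 0.00176 and 0.00248), and 0.78 without DHCA 2 and DHCA 4.

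For 4 of the pairs the test was not passed. PSMB9 and IRF1 gave r = 0.52 and rho = 0.40 (adjusted permutation p = 0.135 and 0.312). Over the 9 libraries left without Sham 1, Sham 4 and Sham 5, r was 0.83 and rho 0.77 (adjusted permutation p = 0.0214 and 0.057). B2M and NLRC5 gave r = -0.45 and rho = -0.37 (adjusted permutation p = 0.185 and 0.312). CD74 and the microglial gene AIF1 gave r = -0.31 and rho = -0.31 (adjusted permutation p = 0.328 and 0.342). CTSS and the microglial receptor CSF1R gave r = -0.34 and rho = -0.30 (adjusted permutation p = 0.318 and 0.342).

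**Figure D4:**
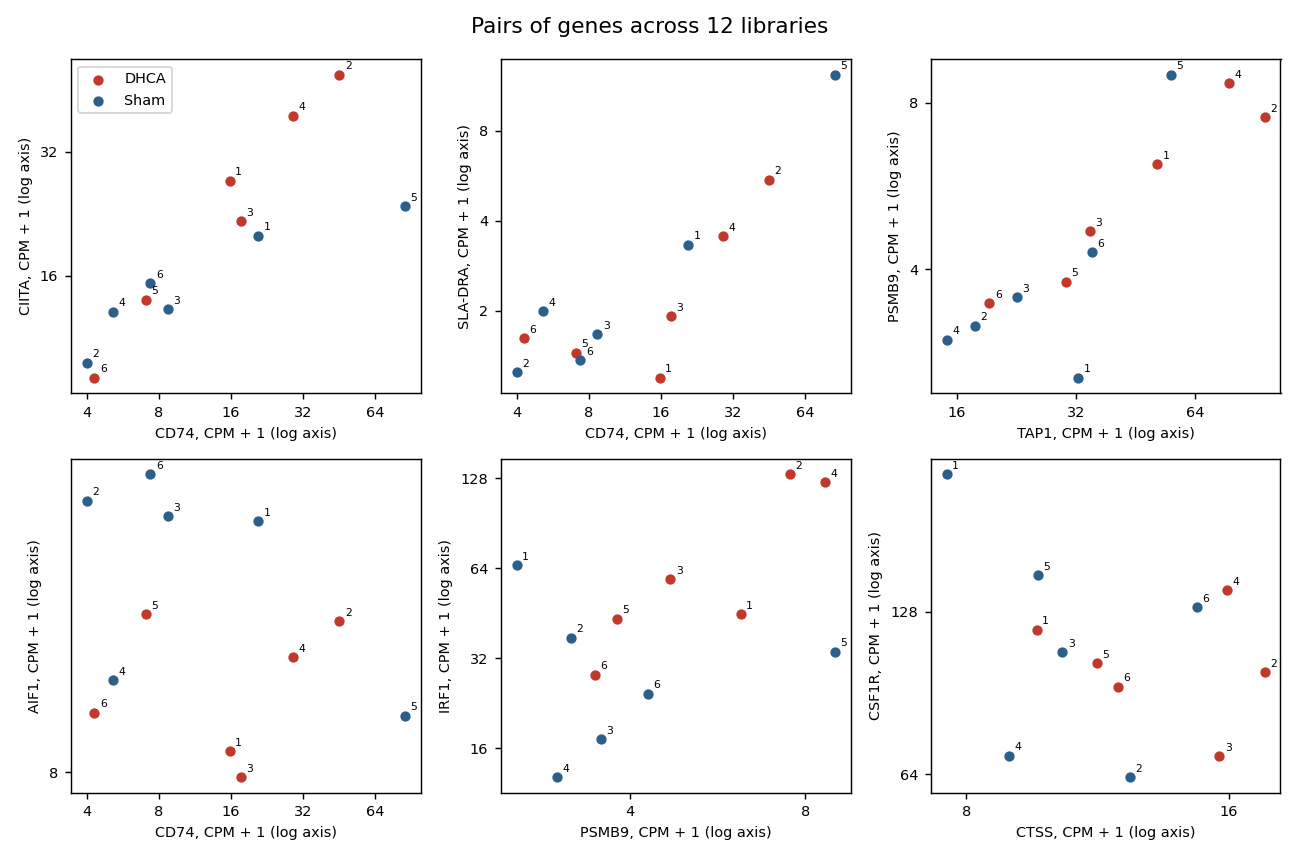
Levels of 6 pairs of genes over 12 libraries, as CPM + 1 on log2 axes, with red points for DHCA, blue for Sham and the replicate number beside each. CD74 and CIITA lie near a line apart from Sham 5, TAP1 and PSMB9 apart from Sham 1, and CD74 shows no such line with AIF1, nor CTSS with CSF1R.

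Markers of cells that make class II were read beside these levels. The sum of 13 microglia and macrophage markers was 259 to 385 CPM in DHCA (median 362) and 253 to 460 CPM in Sham (median 383). Single markers differed more than the sum. CX3CR1 had 3.67 to 14.4 CPM in DHCA and 5.43 to 37.8 CPM in Sham (edgeR adjusted p = 0.365), and TYROBP had 5.00 to 7.21 CPM in DHCA and 0.388 to 4.76 CPM in Sham, without overlap (edgeR adjusted p = 0.501). At an unadjusted p under 0.05, 3 of the 13 (AIF1, CX3CR1 and TREM2) were lower and TYROBP was higher in DHCA. Over all genes tested, 4.47% were lower and 3.43% higher at that p, and 0.993% did not overlap between groups. Of 10 T and NK cell markers 7 averaged under 1 CPM, as did 4 of 6 B cell markers and 2 of 5 dendritic cell markers. CD3E was at most 0.272 CPM in DHCA and 1.94 CPM in Sham, the last in Sham 1. MS4A1, which marks B cells, was at 0 in 5 DHCA and 4 Sham libraries. The 7 blood myeloid markers summed to 22.3 to 34.2 CPM in DHCA (median 28.6) and 8.24 to 30.6 CPM in Sham (median 11.8), mostly through CD14, and 4 of them averaged under 1 CPM. Red cell markers summed to 35.6 to 73.4 CPM in DHCA (median 46.6) and 46.9 to 249 CPM in Sham (median 120). The part of these cells in the levels of CD74, CTSS or the class II chains was not tested.

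Other genes of the pathway were read from lists of 60 names, 57 of them matched and 54 tested. EdgeR called 0 of the 54, beside 0.186% of all genes. At an unadjusted p under 0.05 there were 8, of which 6 were higher and 2 lower in DHCA. Over all genes tested 7.9% were under that p, 3.43% higher and 4.47% lower. DESeq2 called 1, UBD, which edgeR's filter left out. The median log2 fold change of the 54 was 0.10, with 36 above 0 and 18 below, beside 49.5% above 0 over all genes tested. By list, 12 of 15 were above 0 for the standard proteasome with the activators PSME3 and PSME4, and 6 of 10 for folding in the endoplasmic reticulum. It was 5 of 10 for endosomal genes, 10 of 13 for regulators and 3 of 6 for other presentation genes. The shallow Sham 1 was the lowest library for PSMA1 (5.04 CPM), PSMA2 (5.82 CPM), PSMA3 (5.43 CPM), PSMA6 (5.04 CPM) and PSMB2 (4.27 CPM). It was the highest for PSMB7 (86.1 CPM) and PSMA7 (124 CPM). The part of Sham 1 in these numbers was not tested.

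The regulators lay upstream of the members. JAK2, a kinase of the interferon gamma receptor, had 30.3 to 55.3 CPM in DHCA libraries (median 45.8) and 12.4 to 38 CPM in Sham libraries (median 27). All 6 DHCA libraries lay above the Sham median (log2 fold change 0.80, SE 0.25, edgeR adjusted p = 0.354). JAK2 was at 0.44 without Sham 1, Sham 4 and Sham 5. IRF1, a factor that binds the promoters of TAP1, PSMB9 and class I genes, had 27.2 to 131 CPM in DHCA (median 50.8) and 11.8 to 64.4 CPM in Sham (median 28). DHCA 2 and DHCA 4 were its highest libraries, as for TAP1 (log2 fold change 1.23, SE 0.45, edgeR adjusted p = 0.469).

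ICAM1, the adhesion molecule that steadies contact with T cells, had 22.5 to 52.2 CPM in DHCA (median 30.4) and 3.13 to 43.3 CPM in Sham (median 7.87). Sham 2 was its only Sham library above 16.2 CPM. The log2 fold change was 1.19 (SE 0.52, edgeR adjusted p = 0.59), and 2.03 without Sham 2 (edgeR adjusted p = 0.0497), the 1 alternative in which it was called. ICAM1 was at 0.95 without Sham 1 and Sham 5 and at 0.59 without Sham 1, Sham 4 and Sham 5 (edgeR adjusted p = 0.784 and 1.00). CTSC, which activates granule proteases, had a median of 9.5 CPM in DHCA and 7.12 CPM in Sham (edgeR adjusted p = 0.477). On the lower side, CD1D, which presents lipids, had a median of 6.5 CPM in DHCA and 10.9 CPM in Sham (log2 fold change -0.84, edgeR adjusted p = 0.457, and -0.54 without Sham 1 and Sham 5). CTSZ, a lysosomal cathepsin, had a median of 1.75 CPM in DHCA and 3.51 CPM in Sham (log2 fold change -0.81, edgeR adjusted p = 0.567).

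UBD, a ubiquitin-like modifier encoded beside the class I genes in mammals and induced by interferon gamma, is named after its values were seen. It had 4.71, 24.2, 13.4, 6.45, 0.336 and 0.412 CPM in DHCA 1 to 6, and 0, 0.416, 0.135, 0, 0.666 and 0.146 CPM in Sham 1 to 6. DHCA 1 to 4 stood above every Sham library, while DHCA 5 and DHCA 6 lay within the Sham range. The DESeq2 Wald test gave a log2 fold change of 5.38 (SE 0.99, adjusted p = 4.35e-05). The edgeR test without a filter gave 5.26 (SE 1.01) with an adjusted p of 0.053, so the call depends on the tool. In 5 of 6 Sham libraries the level was under that of 3 counts, so the fitted fold depends on how such low counts are handled and is not a measured size.

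**Figure D5:**
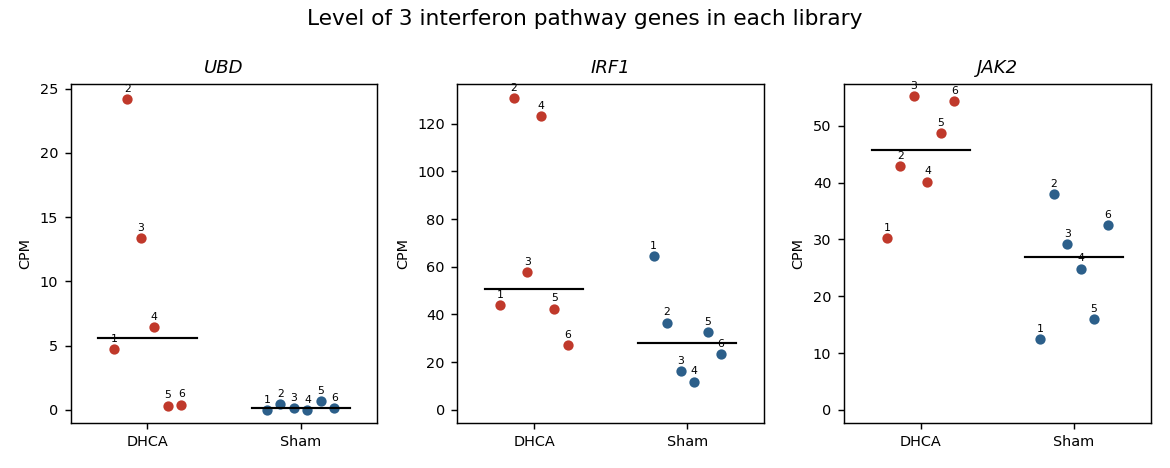
Level in CPM of UBD, IRF1 and JAK2 in each library, DHCA left of Sham, with the replicate number beside each point and the group median as a line. UBD is above 4 CPM in DHCA 1 to 4 and below 1 CPM in the other 8 libraries, and DHCA 2 and DHCA 4 lead IRF1.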

How the data were processed

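The raw counts per Ensembl gene come from the authors' featureCounts 1.5.1 run over exons of build Sscrofa11.1, per the file headers. No source used here names the aligner. Of 18 library columns, 12 match the samples and 6 were not used. Besides p-values, the authors' deposited comparison table holds a mean signal, a test score and log2 fold changes with standard errors. These fold changes were read as DHCA over Sham because they correlated at 0.967 with those computed here over 14004 genes, which are not independent replicates. The table's own test score has the opposite sign to its fold change in all 21223 rows, so its direction rests on that correlation. Values for 86 genes with 0 counts in all 12 libraries show that other counts entered the authors' table.

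Here, genes were filtered with filterByExpr and scaled with TMM factors. The edgeR 4.0.16 quasi-likelihood test was run in R 4.3.3 with group as the only term and Benjamini-Hochberg adjustment over 14004 genes (threshold 0.05). Standard errors come from the F statistic, and 95% intervals from its degrees of freedom. TPM used the exon lengths of the count table. DESeq2 1.42.0 and limma 3.58.1 served as alternatives. The edgeR, DESeq2 and voom fits were also run on simulated counts, and the other steps were not. Where a name was missing, rows were found by a reference name or by at least 150 exon bases shared with a RefSeq gene. Whole gene intervals overlapped for 99.8% of 13575 genes with equal symbols on the same chromosome. The rule of 150 exon bases was not tested on these genes. Correlations used log2 CPM (prior count 2) and 2-sided permutation tests with 100000 resamples, or all orders where 9 libraries were left.

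The members and lists were chosen with earlier results of these data known. Groups follow the titles, and the design text gives 6 piglets a group. Values are given for every member called, for the 6 others with the smallest p and for the 4 most abundant per length, and by mean or range for the rest. Of the pathway lists, the called genes or otherwise the 6 with the smallest p are named, and PSMB6, PSMB7 and IRF1 always. PSMB5 was not matched. One gene of the lists and 1 of the 8 correlations are not reported here. A level of 1 CPM is 1.5 counts in Sham 5 and 13.7 counts in Sham 6, so counting error weighs most on low levels in Sham 5.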

Additional observations from a re-analysis of the deposited data

Results flagged for a closer look

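Among 66 groups of 6 libraries, 8 held a library far from the other 5 by Dixon's test at the 95% level. Chance gives about 1 in 20 only for normal and independent values. These rows share their libraries and some hold very few counts, so 8 of 66 cannot be read against that rate. Of the 8, 6 were in Sham 1, where 1 CPM stands for 2.58 counts. There PSME2 stood at 0.388 CPM against 2.16 to 3.66 CPM in the rest of that group, and SLA-DMB at 0.388 CPM against 3.98 to 5.99 CPM. On the high side, Sham 1 had 46.5 CPM of RFX5 against 23.9 to 28.3 CPM in the others, and 22.1 CPM of RFXAP against 7.99 to 11.2 CPM. The SLA-DOA row had 1.94 CPM against 0 to 0.146 CPM, and the SLA-DOB row 3.49 CPM against 0.666 to 0.944 CPM. In DHCA, PSME1 was at 0 CPM in DHCA 4 against 0.543 to 1.23 CPM in the other DHCA libraries. RFX5 was at 19.1 CPM in DHCA 3 against 27 to 31.5 CPM in the others.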

How the results depend on the processing

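Over 20 alternatives, 0 of 495 fold changes of members and rows outside the rule were called, and 12 of 25 genes kept the sign of their estimate throughout; the cause of the other changes was not tested. The number of genes called was 179 with DESeq2, 207 with voom and quality weights, 8 with the replicate number as a block, 12 without Sham 1 and Sham 5, 1 without Sham 1, Sham 4 and Sham 5, and 9 to 51 when 1 library was left out. The labels do not say whether numbers in the titles pair animals. Deviations of same-numbered libraries correlated between -0.39 and 0.34, with 1 of 6 best with its own number. Such correlations cannot decide it, since paired animals need not have similar deviations. The fit with the block called 0 members and 0 other pathway genes. Other pathway genes called numbered 1 with DESeq2 and 0 to 1 with 1 library left out. Log2 fold changes with the opposite sign were -0.13 for CD74 with DESeq2, -0.055 for NLRC5 with the block, and 0.052 for RFX5 and 0.13 for the SLA-1, SLA-2 and SLA-3 row with voom. Without Sham 1 and Sham 5 they were 0.11 for PSMB10, 0.065 for RFX5, 0.14 for the SLA-1, SLA-2 and SLA-3 row and 0.20 for the SLA-6 and SLA-7 row. Without Sham 1, Sham 4 and Sham 5 they were -0.033 for B2M, 0.010 for LGMN, 0.027 for RFX5 and 0.096 for the SLA-6 and SLA-7 row. With 1 library left out, estimates ran from -0.084 to 0.22 for TAPBP, -0.13 to 0.28 for TAPBPL, -0.29 to 0.078 for ERAP1, -0.21 to 0.39 for PSMB8, -0.43 to 1.31 for CD74, -0.27 to 0.27 for NLRC5, -0.19 to 0.040 for RFX5, -0.25 to 0.072 for the SLA-6 and SLA-7 row and -0.11 to 0.37 for TAP2. Of the correlations, PSMB9 with IRF1 was 0.83 without Sham 1, Sham 4 and Sham 5. Without the 2 libraries farthest from the median, CD74 with SLA-DRA was 0.60 and CTSS with CSF1R was 0.018. Depth limits the rows left untested, such as SLA-5, PSME1, CTSL and SLA-DRA with 44, 65, 112 and 110 counts over 12 libraries.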
